A study of Mus musculus with 9 samples.

Results

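The most accessible chromatin of control cells was followed through knockdown of Med4, a subunit of the Mediator complex. Of the 146734 ATAC-seq peaks in the deposited table, the 2000 with the highest mean over the 3 non-targeting control (NTC) libraries were taken, which is 1.36% of all peaks. ATAC-seq uses the Tn5 transposase to insert sequencing adapters into open DNA, so the reads in a peak count insertions into accessible chromatin. The cells were D2A1-d, a mouse breast carcinoma line grown in medium with serum. They were transduced with an NTC construct (genotype label WT, treatment label Untreated) or with 1 of 2 short hairpin RNAs against Med4, numbered #1 and #4 (genotype label Med4 Knockdown), with 3 libraries per group. The labels call these libraries biological replicates but do not say whether each came from a separate transduction, so every p-value below measures the spread between these libraries. ATAC-seq does not measure Med4 RNA, and the knockdown itself was not checked here.

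Mediator is a large complex that carries signals from transcription factors on DNA to RNA polymerase II, and the MED4 protein sits in its middle module. Strong ATAC-seq peaks usually mark promoters of widely expressed genes, enhancers, and sites held open by architectural proteins. Many such promoters lack a TATA box and instead carry GC boxes, bound by SP-family factors, and CCAAT boxes, bound by the factor NF-Y.

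The promoter windows of 8 of these peaks are shown first, because they include both the member with the largest loss of signal and members that stayed level. The coordinates of the peaks are those of the deposited peak names, whose counting from 0 or 1 is not stated. Each window spans 250 bases before to 50 bases after an annotated gene start, lies wholly inside the peak, and was taken from RefSeq on the GRCm38.p6 build. Pgk1 encodes the glycolytic enzyme phosphoglycerate kinase, and its window at chrX:106186850-106187149 (plus strand) lies in the fifth highest of all control peaks. The windows of Abhd2, a lipid hydrolase gene (chr7:79273016-79273315, plus strand), and Tial1, an RNA-binding protein gene (chr7:128461624-128461923, minus strand), lie in 2 of the 5 least changed peaks. The others belong to the strongest peaks after that of Pgk1 that hold a whole window, with predicted genes passed over. They were added after their values had been seen. They are the windows of Nutf2, a nuclear transport factor gene (chr8:105860283-105860582, plus strand), Gatad2a, a NuRD complex gene (chr8:69996335-69996634, minus strand), and Pxmp4, a peroxisomal membrane protein gene (chr2:154603624-154603923, minus strand). The remaining windows are those of Asf1b, a histone chaperone gene (chr8:83955444-83955743, plus strand), and Nqo1, a quinone reductase gene (chr8:107403156-107403455, minus strand). Capitals mark copies, on either strand, of the CCAAT box (CCAAT, read as ATTGG on the other strand), the GC box (GGGCGG or CCGCCC), the AP-1 site (TGANTCA) and the TATA box (TATAAA). Neighbouring GGGCGG copies may overlap, as they do near the end of the Pgk1 window.
Pgk1 promoter window: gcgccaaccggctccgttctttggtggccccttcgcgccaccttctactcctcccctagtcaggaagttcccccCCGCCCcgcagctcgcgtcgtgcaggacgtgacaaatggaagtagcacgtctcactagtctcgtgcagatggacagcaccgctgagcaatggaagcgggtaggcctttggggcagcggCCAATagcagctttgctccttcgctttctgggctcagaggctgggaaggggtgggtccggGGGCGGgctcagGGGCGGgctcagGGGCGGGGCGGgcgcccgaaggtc
Abhd2 promoter window: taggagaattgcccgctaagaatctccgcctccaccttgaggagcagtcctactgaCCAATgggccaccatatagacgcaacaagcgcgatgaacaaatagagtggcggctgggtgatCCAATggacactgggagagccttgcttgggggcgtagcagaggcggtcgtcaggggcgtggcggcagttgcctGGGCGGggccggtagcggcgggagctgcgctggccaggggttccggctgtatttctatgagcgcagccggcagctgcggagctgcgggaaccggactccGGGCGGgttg
Tial1 promoter window: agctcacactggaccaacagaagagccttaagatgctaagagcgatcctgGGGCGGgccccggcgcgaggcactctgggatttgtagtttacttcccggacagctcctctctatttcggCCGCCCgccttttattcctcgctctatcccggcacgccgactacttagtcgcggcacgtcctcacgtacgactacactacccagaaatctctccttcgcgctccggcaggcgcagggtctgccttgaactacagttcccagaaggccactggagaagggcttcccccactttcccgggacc
Nutf2 promoter window: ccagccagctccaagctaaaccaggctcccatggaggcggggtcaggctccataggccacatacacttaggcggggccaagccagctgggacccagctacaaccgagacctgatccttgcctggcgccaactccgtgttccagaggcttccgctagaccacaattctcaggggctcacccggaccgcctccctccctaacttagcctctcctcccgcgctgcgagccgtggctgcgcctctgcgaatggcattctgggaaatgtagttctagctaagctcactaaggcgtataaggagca
Gatad2a promoter window: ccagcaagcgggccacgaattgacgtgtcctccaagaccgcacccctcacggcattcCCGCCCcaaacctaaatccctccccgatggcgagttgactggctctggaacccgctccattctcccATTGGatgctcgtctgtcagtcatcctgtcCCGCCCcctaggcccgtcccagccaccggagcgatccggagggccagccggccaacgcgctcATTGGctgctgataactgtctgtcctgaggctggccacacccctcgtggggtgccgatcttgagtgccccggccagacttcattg
Pxmp4 promoter window: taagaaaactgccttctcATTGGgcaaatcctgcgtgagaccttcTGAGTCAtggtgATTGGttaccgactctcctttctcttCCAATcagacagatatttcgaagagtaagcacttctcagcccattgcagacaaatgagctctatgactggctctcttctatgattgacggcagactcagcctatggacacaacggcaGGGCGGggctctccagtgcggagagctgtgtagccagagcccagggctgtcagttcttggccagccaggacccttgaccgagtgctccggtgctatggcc
Asf1b promoter window: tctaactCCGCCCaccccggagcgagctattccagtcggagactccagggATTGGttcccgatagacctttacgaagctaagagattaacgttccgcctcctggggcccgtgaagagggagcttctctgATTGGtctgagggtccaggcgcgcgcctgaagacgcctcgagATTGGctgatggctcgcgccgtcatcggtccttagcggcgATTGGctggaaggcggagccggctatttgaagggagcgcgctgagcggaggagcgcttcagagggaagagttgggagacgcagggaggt
Nqo1 promoter window: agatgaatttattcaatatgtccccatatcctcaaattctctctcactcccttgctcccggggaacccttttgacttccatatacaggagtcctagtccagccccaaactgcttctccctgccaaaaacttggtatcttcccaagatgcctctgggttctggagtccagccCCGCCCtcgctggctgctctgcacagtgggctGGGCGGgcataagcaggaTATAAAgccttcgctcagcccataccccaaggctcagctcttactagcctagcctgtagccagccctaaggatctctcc
The Pgk1 window held 1 CCAAT box and 5 GC boxes, Abhd2 held 2 of each, and Tial1 held 2 GC boxes and no CCAAT box. The Asf1b window held 4 CCAAT boxes, the Pxmp4 window 3 with an AP-1 site, and the Gatad2a window 2. The Nutf2 window held none of these letters, and the Nqo1 window held 2 GC boxes and a TATA box but no CCAAT box.

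CCAAT boxes were more frequent in the promoter windows of the 2000 peaks than in those of weaker peaks. Of 525 windows of protein-coding genes that overlapped a member, belonging to 483 genes, 73.5% held CCAAT on either strand. The share was 61.4% of 590 windows at the next 2000 peaks in rank, 39.9% of 9797 windows at any peak and 38.2% of all 21262 windows. It was lower at each step down in rank, from 78.1% at ranks 1 to 500 to 30.2% at ranks beyond 16000, while windows with no peak stood at 36.7%. Windows with 2 or more copies made up 53.0% at members against 16.2% at any peak. Copies were densest between 90 and 50 bases before the gene start, in all windows and at members alike. Neighbouring genes can share a window's bases, so these shares are a description of sequence and carry no test.

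**Figure D1:**
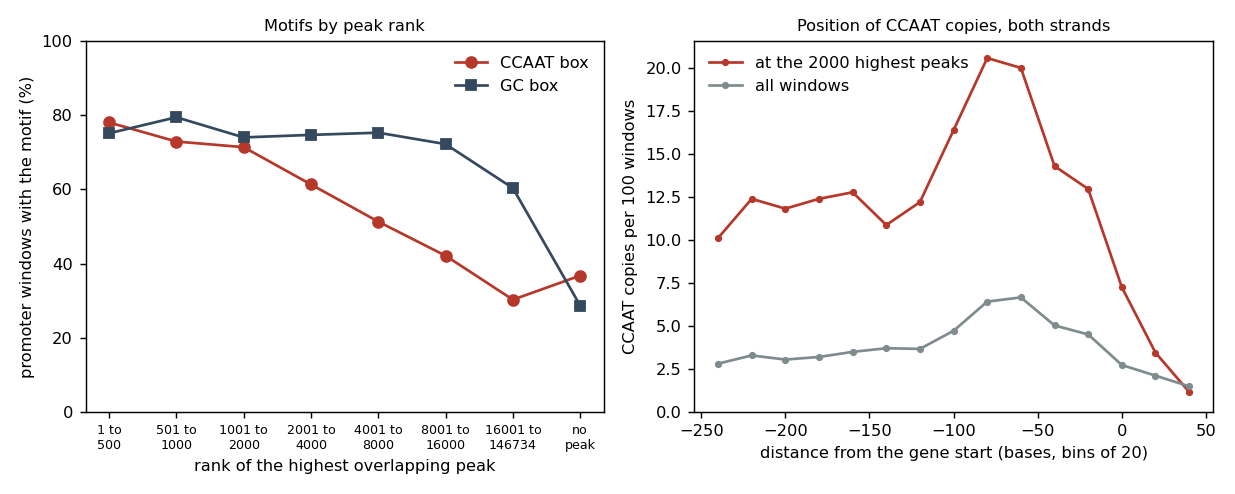
Left, share of promoter windows of protein-coding genes (y axis, %) that hold a CCAAT or GC box against the rank of the highest overlapping peak by NTC mean (x axis). Right, CCAAT copies per 100 windows against distance from the gene start in bases. The CCAAT share went from 78.1% at the 500 highest peaks to 30.2% beyond rank 16000, and the GC box share stayed between 72.3% and 79.5% down to rank 16000.

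Other promoter letters did not follow rank in this way. GC boxes were present in 75.6% of member windows, 74.7% at the next 2000 peaks, 66.7% at any peak and 46.2% of all windows. The median GC content was 61.0% at members and 61.7% at any peak, against 56.3% over all windows. The ETS motif CCGGAAGT stood in 8.95% of member windows and 9.37% at any peak. The cAMP response element TGACGTCA was in 1.33% against 3.55%, and the NRF1 motif in 0.571% against 2.30%. The TATA box was in 4.19% against 6.36%, and the AP-1 site TGANTCA in 5.52% against 6.18%. Each motif was read on both strands, and a match says nothing about binding.

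A position at a gene end was more frequent among the 2000 peaks than among all peaks, but not more than just below them. A peak was placed at a gene end when its nearest edge lay within 1 kb of an end of a RefSeq protein-coding gene, otherwise inside a gene or between genes by its centre. Of the members, 561 (28.05%) were at a gene end, 703 (35.15%) inside a gene and 736 (36.8%) between genes. Over all peaks these shares were 12.6%, 45.8% and 41.6%. Over the next 2000 peaks they were 30.35%, 35.0% and 34.65%. Of the gene-end members 447 (79.7%) were at the start and 26 at the far end, while the strand was not known for 88. Over all gene-end peaks the start made up 59.5%. The median distance from a member's centre to the nearest gene end was 10.1 kb, against 17.3 kb over all peaks, and 394 members (19.7%) lay more than 50 kb away.

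**Figure D2:**
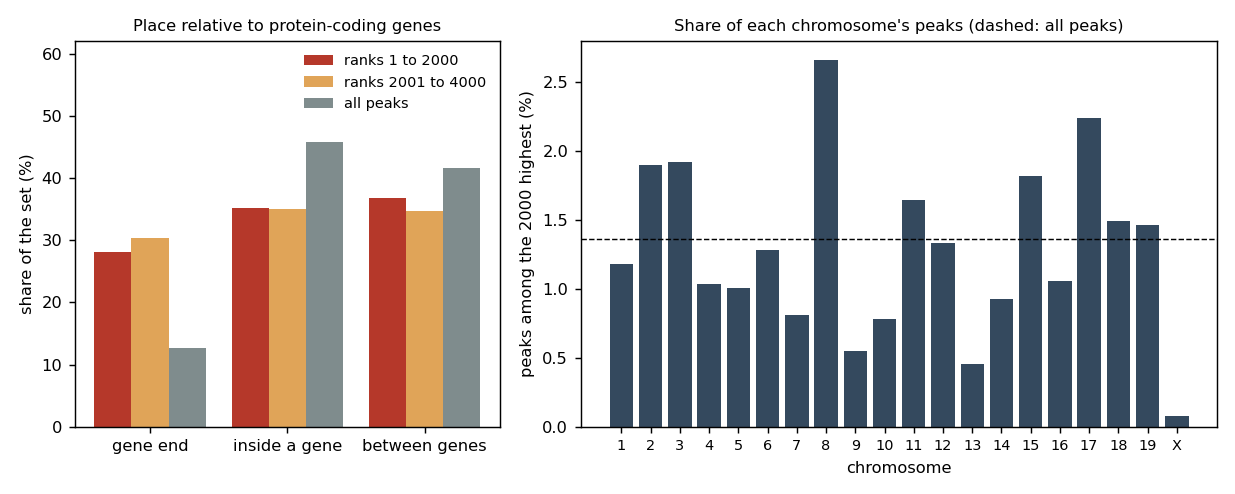
Left, share of each set of peaks (y axis, %) at a gene end, inside a gene or between genes, for the 2000 highest peaks, the next 2000 in rank and all peaks. Right, share of each chromosome's peaks that are among the 2000 highest (y axis, %), with the share over all peaks, 1.36%, dashed. Gene ends hold 28.05% of the 2000 and 12.6% of all peaks, and chromosome 8 stands highest at 2.66%.

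The peaks were unevenly spread over chromosomes. Chromosome 8 held 243 of them, 12.15% of the members against 6.22% of all peaks, and 2.66% of its peaks were members. On chromosome 8 the 10 Mb windows from 70 to 80, 80 to 90 and 90 to 100 Mb had 4.06%, 4.28% and 4.96% of their peaks among the members, against a median of 1.06% over 262 such windows. Chromosome 17 followed with 2.24% of its peaks, then chromosome 3 with 1.92% and chromosome 2 with 1.89% (219 members). The share was 0.547% on chromosome 9 and 0.456% on chromosome 13. On chromosome X only 2 of 2651 peaks were members, those of Pgk1 and of Morf4l2, a chromatin regulator gene. Gene-end peaks had a median of 710 normalised reads on chromosome 8 and of 527 on chromosome X, the lowest of all chromosomes. On chromosome 16 that median was the highest, at 742, and 1.05% of its peaks were members.

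Members also stood in groups. Of the 2000, 279 (13.95%) had another member within 10 kb, against 183 (9.15%) among the next 2000 peaks, and they formed 127 groups of at most 5 peaks. Nfatc2, encoding a calcium-regulated transcription factor, was the nearest gene to 9 members, 5 of them inside it, over 136 kb of chromosome 2. Klf14, a Krüppel-like factor gene, had 6, all between genes and 103 to 168 kb away. Cbln1, Myc, Tex14, Plec, Zswim4 and Zfp36l2 had 5 each. The 5 nearest to Myc, the proto-oncogene, lay between genes at 89.1 to 668 kb, and the 5 nearest to Plec, the cytolinker plectin, lay inside it.

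The level of the members spanned a narrow range above the other peaks. Their NTC means ran from 3698 to 15680 normalised reads per peak with a median of 4418, against a median of 184 over all peaks. The highest was inside Adgrg1, an adhesion receptor gene, at chr8:95012390-95012891, and 6 of the 10 highest were on chromosome 8. Its values were 15185, 16329 and 15527 in the NTC libraries, 14417, 14073 and 16595 with hairpin #1, and 12247, 13759 and 15210 with hairpin #4. The 3 groups overlapped in that peak, which ranked first in each of them. The choice stopped within a continuous range: the last member, 12.7 kb from Zfpm1, had a mean of 3698.39 and the next peak, near Tada3, 3698.10. The last members before it were at Pgp (3699.10) and Abhd12 (3699.51), and the peaks after Tada3 were at Scx (3698.02) and near Smad7 (3697.72).

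Depth was high for these peaks. Each value of the table was a whole multiple of a library's own step, and taking the step as 1 read gave 44753019 to 98898174 reads in peaks per library, and the members held 11.2 to 12.4% of them. The median coefficient of variation of a member between replicates was 2.20% in NTC, 3.40% with hairpin #1 and 5.79% with hairpin #4, against 7.23%, 7.44% and 8.93% over all peaks. The hairpin #4 libraries, at 87645884, 61002475 and 44753019 reads, included the shallowest. In each group the shallowest library had the highest median level of the members. On the log2 scale the library medians, as deviations from each peak's mean, were 0.027, 0.062 and 0.041 in NTC, -0.034, -0.063 and 0.026 with hairpin #1, and -0.101, -0.0013 and 0.062 with hairpin #4. The hairpin #1 libraries lay below the NTC libraries, the highest of them just so, while hairpin #4 overlapped both other groups. The part of depth in the results was not tested.

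The labelled cell type was compared with marker genes. Vimentin, the mesenchymal intermediate filament, had the highest gene-end peak among 6 mesenchymal markers, at 4155 normalised reads, and was a member. Of 8 epithelial markers 4 had a gene-end peak, led by keratin Krt8 at 929, while Epcam, Cdh1, Krt5 and Cldn3 had none and none was a member. Of 6 immune markers Cd68 had 2377, and the summed level of the immune markers was 3137, 2963 and 2735 in NTC, hairpin #1 and hairpin #4. In the same order the epithelial markers summed to 1504, 1848 and 1984 and the mesenchymal ones to 9837, 9099 and 9254. The single endothelial marker with a peak, Cdh5, had 239, 433 and 282, the single adipocyte one, Lep, 788, 765 and 1132, and the 3 neural markers summed to 331, 235 and 287. Their part in the results was not tested. In bulk chromatin, fewer cells of a type and less signal per cell cannot be told apart.

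The members kept their level more closely than all peaks did, and about as closely as the peaks just below them. Log2 folds were taken from limma over log2(value + 1), with all 146729 peaks of a mean of at least 10 in 1 fit, and all 2000 members passed that filter. Within 25% of NTC (the larger mean over the smaller) were 1789 members (89.45%) with hairpin #1 and 1902 (95.1%) with hairpin #4, against 53.5% and 56.8% of all peaks. Between the 2 hairpins, 1944 members (97.2%) lay within 25%, against 63.2% of all peaks. The group means of 1727 members (86.35%) lay within 25% of each other over all 3 groups, against 83.55% of the next 2000 peaks and 35.3% of all peaks. A fold of 2 or more was reached by Pgk1 alone, with either hairpin against NTC, and by no member between the hairpins. The median standard error of a member's fold was 0.047, against 0.12 over all peaks.

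**Figure D3:**
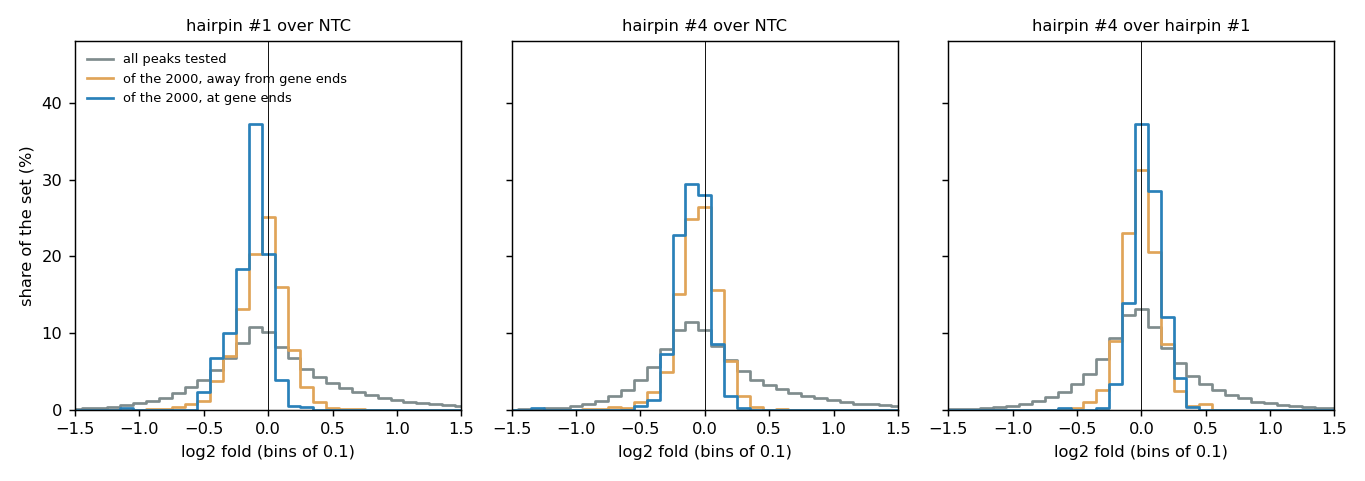
Distribution of log2 folds (x axis, bins of 0.1) as a share of each set of peaks (y axis, %) for hairpin #1 over NTC, hairpin #4 over NTC and hairpin #4 over hairpin #1. The members, split into 561 at gene ends and the rest away from them, fall in a narrow band around 0, and 89.45%, 95.1% and 97.2% of them lie within 25% in the 3 panels.

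Many small differences from NTC passed the threshold of an adjusted p under 0.05. With hairpin #1, 267 members were higher and 761 lower than NTC (51.4% called, against 52.7% of all peaks; 27.9% of all peaks were higher and 24.9% lower). With hairpin #4, 215 were higher and 721 lower (46.8% called, against 50.4% of all peaks; 26.2% higher and 24.3% lower). The NTC libraries chose these peaks, so a lower value elsewhere is in part built into the choice, and the counts are a description. The median log2 fold of the members was -0.07 with hairpin #1 and -0.06 with hairpin #4, and that of all peaks -0.01 and -0.02. Over the next 2000 peaks the medians were -0.06 and -0.07, close to those of the members. The split depended on the scaling. With libraries centred on the median of all gene-end peaks it was 431 higher and 605 lower with hairpin #1, and 566 higher and 362 lower with hairpin #4. With libraries set to the median of the peaks outside gene ends it was 84 and 1026, and 31 and 1158. That scaling moved the median fold of all peaks with hairpin #4 from -0.02 to -0.14. Without hairpin #4 replicate 1, 19.95% of members were higher with hairpin #4 in place of 10.75%.

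The NTC libraries were then used 1 at a time, so that the library in the fit had not chosen the peaks. In each of 3 rounds, 2000 peaks were chosen by 2 NTC libraries and the fit held only the third, which is then assumed to vary like the hairpin groups. Of each round's peaks, 1967 to 1972 were among the 2000 described here. With hairpin #1, 116 to 143 of the 2000 were higher and 401 to 497 lower, and with hairpin #4, 66 to 94 were higher and 286 to 392 lower (limma, adjusted p under 0.05). In the same fits, with NTC library 1, 2 or 3, the share of all peaks that was lower with hairpin #1 was 14.8%, 14.6% and 14.6%, and the share higher 20.7%, 21.2% and 21.0%. With hairpin #4, 13.6%, 12.9% and 13.2% of all peaks were lower and 19.3%, 19.4% and 19.4% higher. The share of the chosen peaks that was lower, 20.05 to 24.85% with hairpin #1 and 14.3 to 19.6% with hairpin #4, was above that of all peaks in each round, and the share higher, 5.8 to 7.15% and 3.3 to 4.7%, was below it. The median fold of the held-out choice was -0.05 to -0.09 with hairpin #1 and -0.04 to -0.08 with hairpin #4. The held-out NTC library itself differed from the choosing pair by a median of -0.02 to 0.02. For single members named below, the largest adjusted p over these 3 fits is called the single-NTC p. It is a description, because all 3 NTC libraries took part in choosing the members that are named.

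Between the hairpins, neither of which entered the choice, 402 members were higher and 331 lower with hairpin #4 than with hairpin #1 (36.65% called, limma, adjusted p under 0.05). Over all peaks 41.6% were called, 20.4% higher and 21.2% lower. The median log2 fold of the members was 0.01, and the middle of their range, between the quartiles, ran from -0.07 to 0.09. The higher share moved with single libraries, from 20.1% to 35.1% without hairpin #4 replicate 1, 13.2% without hairpin #4 replicate 3 and 12.9% without hairpin #1 replicate 2. It also moved with the scaling, to 667 higher and 303 lower with equal totals in peaks, 641 and 233 with gene-end peaks as the centre, and 177 and 300 with libraries centred on peaks away from them.

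Gene-end members, like the gene-end peaks just below them in rank, were seldom higher than NTC at the deposited scaling. With hairpin #1, 11 of 561 were higher and 280 lower (49.9%), and with hairpin #4, 20 and 236 (42.1%). Of the 703 members inside genes, 126 (17.92%) were higher and 217 (30.87%) lower with hairpin #1. With hairpin #4, 98 (13.94%) of them were higher and 230 (32.72%) lower. Over all peaks inside genes 29.64% were higher and 24.42% lower with hairpin #1, and 27.03% and 23.28% with hairpin #4. Of the 736 members between genes, 130 (17.7%) were higher and 264 (35.9%) lower with hairpin #1, and 97 (13.2%) and 255 (34.6%) with hairpin #4. Over all peaks between genes 30.5% were higher and 22.6% lower with hairpin #1, and 29.4% and 21.5% with hairpin #4. Over all gene-end peaks 12.8% were higher and 34.0% lower with hairpin #1, and 12.5% and 36.8% with hairpin #4. In the 3 held-out rounds, 23.0%, 30.5% and 29.3% of the chosen gene-end peaks were lower with hairpin #1, against 18.9%, 22.6% and 19.2% of those away from gene ends and 17.9%, 17.2% and 20.7% of all gene-end peaks. With hairpin #4 these shares were 13.1%, 20.8% and 21.0%, against 14.8%, 19.1% and 14.8% away and 18.4%, 16.9% and 21.7% of all gene-end peaks, so neither order held in every round. The share of the chosen gene-end peaks that was higher lay below that of all gene-end peaks in each round, with either hairpin. The difference between gene-end members and the others was not tested. Between the hairpins 133 gene-end members (23.7%) were higher and 35 (6.24%) lower with hairpin #4, with a median log2 fold of 0.03. Over all gene-end peaks 15.3% were higher and 15.7% lower in this comparison. The higher share of the gene-end members was 41.2% with equal totals and 10.3% with the peaks outside gene ends as the centre. Centred on gene-end peaks, 17.1% of the gene-end members were higher and 21.0% lower with hairpin #4 against NTC. Members with a CCAAT box in an overlapping window (329) and those without (108) had median folds of -0.10 and -0.13 with hairpin #1 and -0.09 and -0.13 with hairpin #4, a difference that was not tested.

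Whole chromosomes leaned together. On chromosome 2, 2 of 219 members (0.913%) were higher and 202 (92.2%) lower than NTC with hairpin #1, with a median log2 fold of -0.33. With hairpin #4, 8 (3.65%) were higher and 137 (62.6%) lower (-0.15). Over all chromosome 2 peaks 13.6% were higher and 55.5% lower with hairpin #1, and 17.7% and 37.8% with hairpin #4. On chromosome 12, 1 of 77 was higher and 69 lower with hairpin #1 (-0.26), and 1 and 56 with hairpin #4 (-0.16). Over all chromosome 12 peaks 16.8% were higher and 48.1% lower with hairpin #1 (-0.24), and 18.7% and 37.9% with hairpin #4 (-0.15). Between the hairpins, 147 chromosome 2 members rose and 7 fell with hairpin #4 over hairpin #1, which is 67.1% and 3.20%, against 37.4% and 11.2% of all chromosome 2 peaks. The median deviation of the chromosome 2 members was 0.15 to 0.18 in the NTC libraries, -0.20 to -0.12 with hairpin #1 and -0.08 to 0.09 with hairpin #4, so the groups did not overlap. All chromosome 2 peaks had medians of -0.32 and -0.16 against NTC, close to those of its members. On chromosome 8, by contrast, 6 members (2.47%) were higher and 86 (35.4%) lower with hairpin #4 than with hairpin #1, against 15.2% and 24.4% of all chromosome 8 peaks. Without chromosomes 2 and 12, 1704 members remained, of which 264 were higher and 490 lower with hairpin #1, 206 and 528 with hairpin #4, and 218 and 320 between the hairpins. The 477 gene-end members among them had 11 higher and 196 lower with hairpin #1, and 19 and 176 with hairpin #4. Between the hairpins 62 of them were higher and 35 lower. The shares of all peaks called without chromosomes 2 and 12 were not computed, so these counts have no background and are a description. Chromosome 18 stayed in, where 68.75% of members and 36.2% of all peaks were lower with hairpin #1. A shift shared by all peaks of a chromosome and a change in openness at each of them cannot be told apart here.

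Pgk1 had the only member with a fold of 2 or more against NTC. Its peak at chrX:106186727-106187228 covers the gene start and the window printed above. It read 10482, 11434 and 10768 in the NTC libraries, 4847, 4727 and 5229 with hairpin #1, and 3922, 4529 and 4613 with hairpin #4. Every hairpin library lay below every NTC library by a wide margin. The log2 fold was -1.14 with hairpin #1 and -1.33 with hairpin #4 (SE 0.05 each), and the peak went from rank 5 in NTC to 548 and 975. In the fits with 1 NTC library the folds were -1.21 to -1.09 and -1.40 to -1.27, and the single-NTC p was 1.88e-12 with hairpin #1 and 5.14e-14 with hairpin #4 (limma). The next peak, downstream inside Pgk1 at chrX:106187687-106188188, was far weaker, at 1129 ± 42.1 in NTC, 1024 ± 83.4 with hairpin #1 and 949 ± 59.8 with hairpin #4 (SD, n = 3). The other chromosome X member, inside Morf4l2, went from 3772 ± 152 to 3380 ± 119 and 3297 ± 279.

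**Figure D4:**
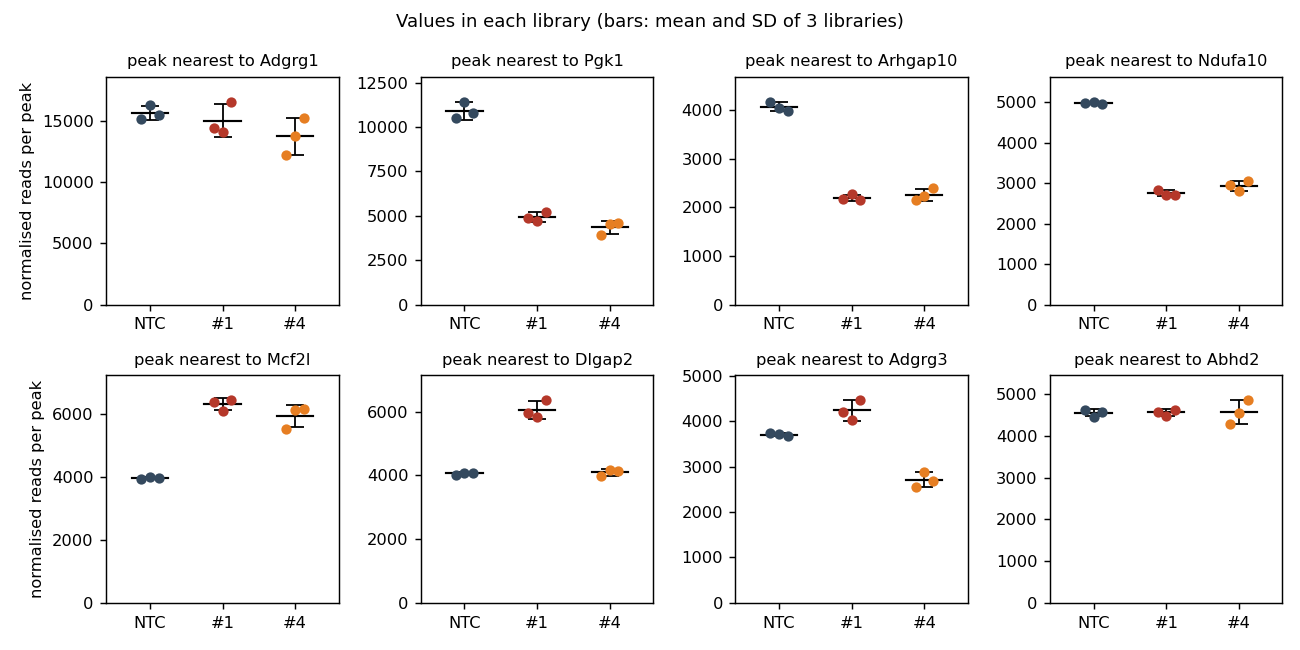
Normalised reads (y axis, from 0) of 8 members in each library, with 1 point per library and bars for the mean and SD of 3 libraries, for NTC and hairpins #1 and #4. Pgk1, Arhgap10 and Ndufa10 are lower with both hairpins, Mcf2l is higher with both, Dlgap2 is higher with hairpin #1 than in the other groups, Adgrg3 is lower with hairpin #4, and Adgrg1 and Abhd2 overlap between groups.

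Others of the 10 highest peaks moved less. The peak 9.06 kb from Def8 was lower with hairpin #4, from 11868 ± 92.7 in NTC to 8825 ± 694 (log2 fold -0.43, single-NTC p 6.28e-05 by limma) and was 11309 ± 185 with hairpin #1. The peak 17.5 kb from Atp8b4, a lipid flippase gene, was lower with hairpin #1, from 11317 ± 222 to 8871 ± 262 (-0.35, single-NTC p 0.000811 by limma) and was 10278 ± 558 with hairpin #4. The peak 78.8 kb from Cd93, a receptor gene, was lower with hairpin #1, from 10793 ± 296 to 8849 ± 410 (-0.29, single-NTC p 0.0124 by limma) and was 10504 ± 733 with hairpin #4. Atp8b4 and Cd93 lie on chromosome 2, where other members were lower too. The peaks at Sp1, inside Aktip and Rfx1, and near Cacna1a had single-NTC p-values of 0.130 to 0.956 with hairpin #1 and 0.150 to 0.545 with hairpin #4. At the gene start of Sp1, a GC-box binding factor, the means were 9718 ± 91.1, 9484 ± 294 and 10277 ± 589. With all NTC libraries in the fit, the peak inside Aktip was called lower with both hairpins (log2 fold -0.20 each). The peaks near Cacna1a (-0.18) and inside Adgrg1 (-0.20) were called lower with hairpin #4 alone. These calls are a description, because the NTC libraries chose the peaks.

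Below Pgk1, the lowest folds over both hairpins were mostly inside genes and away from their ends. These peaks were picked for their folds, so their values are given with no test. Arhgap10, a GTPase-activating protein gene, holds a peak at chr8:77444461-77444962 that read 4180, 4055 and 3993 in NTC, 2166, 2275 and 2152 with hairpin #1 and 2150, 2241 and 2392 with hairpin #4. Every hairpin library lay below every NTC library, and the peak dropped from rank 1374 to 7774 and 6807. The peak 66.6 kb from Ndufa10, a respiratory complex I gene, read 4971, 5016 and 4964 in NTC, 2842, 2705 and 2719 with hairpin #1 and 2947, 2801 and 3046 with hairpin #4. The log2 folds were -0.89 and -0.85 for Arhgap10 and -0.86 and -0.77 for Ndufa10. Arhgef7, a Rac and Cdc42 exchange factor gene, had a peak at -0.52 and -0.80, with a difference between hairpins of -0.28. The remaining ones were at Spata2, Sulf2, Ptgs1 (all on chromosome 2) and Adssl1 (chromosome 12), with folds of -0.65 to -0.42 with hairpin #1 and -0.71 to -0.43 with hairpin #4.

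The highest folds over both hairpins were also all away from gene ends. Inside Mcf2l, a guanine nucleotide exchange factor gene, the peak at chr8:12996669-12997170 read 3939, 4010 and 3978 in NTC, 6385, 6106 and 6449 with hairpin #1 and 5532, 6117 and 6147 with hairpin #4. The 10.6 kb distant peak of Cyp3a13, a cytochrome P450 gene, read 3751, 3846 and 3788, then 6002, 6082 and 5946, then 5033, 5146 and 5221. In both peaks every hairpin library was above every NTC library. The log2 folds were 0.67 and 0.58 for Mcf2l and 0.66 and 0.44 for Cyp3a13. Peaks inside Khdrbs3, an RNA-binding protein gene, and near Asb5, a ubiquitin ligase adaptor gene, had 0.43 and 0.45, and 0.45 and 0.36. Those near Txn2, Cops8 and Vegfc and inside Atxn10 had 0.33 to 0.42 with hairpin #1 and 0.27 to 0.44 with hairpin #4. Vegfc encodes a lymphatic growth factor and its peak lies 29.9 kb from it. These peaks too were picked for their folds, and no test is given.

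The hairpins differed most from each other at peaks that were also away from gene ends, with 1 exception. Such peaks were picked among called members for their folds in this comparison, so their small adjusted p is built into the choice. Adgrg3, an adhesion receptor gene next to Adgrg1, has a member near its start at chr8:95015802-95016303. It read 3737, 3707 and 3664 in NTC, 4213, 4024 and 4469 with hairpin #1 and 2554, 2885 and 2685 with hairpin #4. The hairpin groups lay on opposite sides of NTC, and the log2 fold of hairpin #4 over hairpin #1 was -0.65 (SE 0.05, adjusted p 2.98e-13, limma). The neighbouring Adgrg1 peak, the highest of all, differed by -0.13 (adjusted p 0.0544, limma). Inside Dlgap2, a postsynaptic scaffold gene, the peak at chr8:14468096-14468597 read 4011, 4086 and 4087 in NTC, 5965, 5821 and 6365 with hairpin #1 and 3975, 4169 and 4145 with hairpin #4 (-0.56, adjusted p 9.21e-13, limma). NTC and hairpin #4 overlapped there and hairpin #1 stood above both. Inside Pld1, the phospholipase D gene, hairpin #4 alone was low, at 2749 ± 87.0 against 4232 ± 62.1 in NTC and 4000 ± 78.7 with hairpin #1 (-0.54, adjusted p 2.57e-12, limma). Sncaip, Nfat5, Mical3, Pkp1 and Tmem131 followed with -0.46 to -0.43.

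In the other direction, 6 of the 8 members with the highest fold of hairpin #4 over hairpin #1 lay on chromosome 2. They were those nearest to Gtf3c5, a polymerase III factor gene (0.52), Slpi, a protease inhibitor gene (0.50), Ptpn1, a phosphatase gene (0.48), Ube2v1 (0.48), Fgf7 (0.48) and Ccn5 (0.46). The peak nearest to the growth factor gene Fgf7 lies inside Fam227b and read 5677, 5509 and 5491 in NTC, 3198, 3248 and 3329 with hairpin #1 and 4468, 4356 and 4830 with hairpin #4. Here the 3 groups did not overlap, and hairpin #4 lay between the others. The peaks off chromosome 2 were inside Angptl4, a lipase inhibitor gene, and Ttc7 on chromosome 17, both 0.48. At Ttc7 the means were 4062 ± 29.5 in NTC, 3378 ± 11.2 with hairpin #1 and 4720 ± 278 with hairpin #4. These 8 peaks were picked among called members for their folds in this comparison. Their small adjusted p, at most 2.39e-08 (limma), is therefore built into the choice.

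The least changed members stood at or inside genes of varied function. At the Abhd2 start, whose window is printed above, the libraries read 4636, 4467 and 4571 in NTC, 4583, 4483 and 4637 with hairpin #1 and 4287, 4561 and 4868 with hairpin #4. At the Tial1 start the means were 4463 ± 77.8, 4456 ± 230 and 4446 ± 117, and at a gene end shared by Mylpf and Tbc1d10b 5756 ± 51.1, 5738 ± 186 and 5761 ± 253. Peaks inside Ltbp1, a latent TGF-beta binding protein gene, and Nmu, a neuropeptide gene, were as even, at 3738, 3737 and 3752 and at 5040, 5052 and 5070. Each of these 5 was picked for its small folds, none above 0.01 in size, and the standard errors were 0.04 to 0.05.

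Rank was kept less well across groups than within them. Among the 2000 highest peaks of the hairpin #1 mean, 1643 members (82.15%) were found again, and among those of hairpin #4, 1725 (86.25%). All of the 100 highest stayed among the 2000, and 968 and 986 of the 1000 highest did. Of those that left, 325 of 357 and 259 of 275 were still ranked within 4000, and the furthest falls were those of Arhgap10 to rank 7774 and Arhgef7 to rank 7185. Libraries of 1 group shared 92.85 to 95.5% of their 2000 highest peaks. An NTC library shared 79.95 to 82.4% with a hairpin #1 library and 83.05 to 85.75% with a hairpin #4 library, and the hairpin libraries shared 84.1 to 86.65% with each other. These ranges within and between groups did not overlap. The place of a lost member was taken, for example, by a peak 21.4 kb from Dnah5, an axonemal dynein gene, which went from rank 9270 to 726 and 959.

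**Figure D5:**
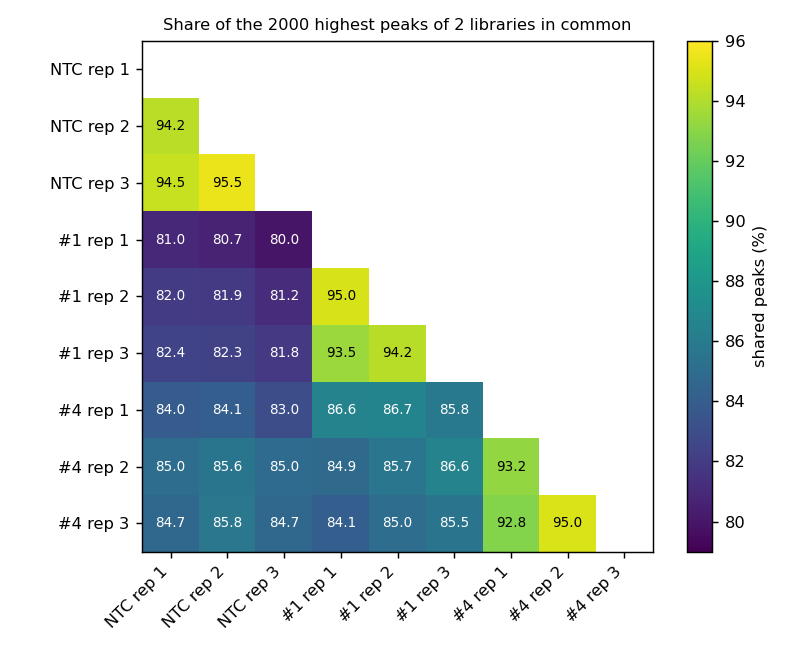
Share of the 2000 highest peaks of 1 library that are also among the 2000 highest of another (number and colour, %), for all pairs of the 9 libraries on both axes. Pairs within a group share 92.85 to 95.5%, and pairs between groups 79.95 to 86.65%.

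Gene groups differed in how many of their genes had a member at an end. As a background, 681 of 13059 protein-coding genes with a gene-end peak (5.21%) had one. Of the cytoskeleton and focal adhesion genes it was 11 of 30 (36.7%), among them non-muscle myosin Myh9, the adhesion adaptor Zyx, tubulin Tubb4b, the kinase Src, and Actn1, Pxn and Vcl. Of AP-1 and immediate early genes it was 6 of 25 (24.0%), namely Ier3, Klf10, Fosl2, Junb, Jun and Ccn1. Chaperone and stress genes had 4 of 21 (19.0%), mesenchymal genes 2 of 12 (Snai1 and Vim), YAP and TEAD targets 3 of 19, and glycolysis and translation factor genes 3 of 20 each. Ribosomal protein genes, though highly expressed in most cells, had 3 of 73 (4.11%), proteasome and ubiquitin genes 1 of 32 and Mediator genes 1 of 31, which was Med19. No collagen and matrix gene (of 20), epithelial gene (of 12) or immune gene (of 9) had a member.

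The cytoskeletal members leaned toward hairpin #4. Between the hairpins 9 of the 11 were higher with hairpin #4 and none lower, against 23.7% and 6.24% of all gene-end members, and 3 of the 11 were higher with the peaks outside gene ends as the centre. At the Myh9 end the libraries averaged 8165 ± 177 in NTC, 8499 ± 573 with hairpin #1 and 9567 ± 1008 with hairpin #4 (0.17 between hairpins, adjusted p 0.0102, limma). Myh9 lies on chromosome 15, where 40.1% of members were higher and 3.52% lower with hairpin #4 than with hairpin #1. Over all chromosome 15 peaks 30.0% were higher and 12.6% lower in this comparison. At Zyx the means were 7572 ± 192, 7085 ± 579 and 8074 ± 1010 (0.18, adjusted p 0.0107, limma), and at Tubb4b on chromosome 2 4861 ± 216, 3917 ± 142 and 4459 ± 221 (0.19, adjusted p 0.00159, limma). The hairpin libraries overlapped at Myh9 and Zyx. Hairpin #1 replicate 3 read 9146 and 7737 there, above hairpin #4 replicate 1 at 8556 and 6969. The part of chromosomes and single libraries in this lean was not tested. Against NTC 4 of the 11 were lower and none higher with hairpin #1, and 3 were lower and 3 higher with hairpin #4.

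Other groups leaned lower against NTC, as gene-end members did in general. Of the 6 AP-1 and immediate early members 5 were lower with hairpin #1 and 4 with hairpin #4, against 49.9% and 42.1% of all gene-end members, and with libraries centred on gene-end peaks 4 and 1. At the gene start of Ccn1, a matricellular protein, the means were 3863 ± 98.8 in NTC, 3210 ± 221 with hairpin #1 and 3259 ± 161 with hairpin #4 (single-NTC p 0.0216 and 0.0417, limma). The single-NTC p was 0.359 for Ier3 with hairpin #1, and 0.210 and 0.410 for Fosl2, so these calls were lost there. The 4 cell cycle members were lower with both hairpins with all NTC libraries in the fit. The cyclin gene Ccna2 lost both calls with 1 NTC library (single-NTC p 0.0914 and 0.134, limma), and the transcription factor gene E2f1, on chromosome 2, lost that with hairpin #4 (0.137). The replication clamp gene Pcna, on chromosome 2, went from 3985 ± 138 to 2780 ± 172 and 3289 ± 209 (single-NTC p 2.34e-05 with hairpin #1 and 0.0315 with hairpin #4, limma). Both mesenchymal members, also on chromosome 2, were lower with both hairpins. Vim went from 4155 ± 227 to 3072 ± 18.1 and 3085 ± 176 (single-NTC p 0.000516 and 0.000671, limma) and Snai1, at its far end, from 6525 ± 203 to 4987 ± 230 and 5197 ± 192 (0.000414 and 0.00332). The 4 mesenchymal markers other than Vim with a gene-end peak, none of them members, summed to 5683 in NTC, 6027 with hairpin #1 and 6169 with hairpin #4. Med19 on chromosome 2 was lower with hairpin #1 alone, at 3375 ± 199 against 4128 ± 28.7 in NTC and 4155 ± 258 with hairpin #4. The hairpins differed there by 0.30 (adjusted p 4.89e-06, limma). The Med19 peak also lies at an end of Tmx2, the Pcna peak at one of Cds2 and the Ccna2 peak at one of Bbs7.

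The other glycolysis members gave no call against NTC. At the start of Eno1, the enolase gene, the means were 4083 ± 81.0, 3998 ± 367 and 4439 ± 533, and at Gapdh 3743 ± 97.0, 3534 ± 199 and 3833 ± 226. Among ribosomal protein members were Rps21 on chromosome 2 (6031 ± 177, 4312 ± 286 and 5321 ± 608) and Rpl37 (4471 ± 178, 4173 ± 239 and 4463 ± 215). The chaperone gene Hspa5, on chromosome 2, went from 4558 ± 139 to 3441 ± 224 and 3680 ± 247. Hsp90b1, on chromosome 10, went from 5412 ± 134 to 4946 ± 360 and 4774 ± 348. The Rps21 peak also lies at an end of Cables2, the Rpl37 peak at one of Card6 and the Hsp90b1 peak at one of Ttc41.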

How the data were processed

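The deposited table gives, for 146734 peaks and 9 libraries, the signal as read counts per peak that the authors divided by 1 size factor per library (with DESeq2, as the name of the deposited file states). Trim Galore, BWA, MACS2 and featureCounts (Subread) and the builds mm10 and GRCm38 are named in the submitters' processing notes, with no versions. The way replicates were combined for peak calling was not given in these sources. Each column held whole multiples of 1 step (tolerance 0.0001 of a read), from which the depth per library was read with 1 step taken as 1 read. In 5 of the 9 columns the smallest value is 2 steps, so that reading is an assumption.

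Members were ranked by the NTC mean. The members and gene lists were chosen with earlier results of these data known. Log2(value + 1) was fitted with limma 3.58.1 in R 4.3.3 (trended empirical Bayes) for all 3 groups and all peaks with a mean of at least 10, with Benjamini-Hochberg adjustment over 146729 peaks and a threshold of 0.05. The code was tested on simulated data. The count tests planned at first (edgeR, DESeq2 and TMM scaling on recovered reads) were not run, because that reading of the step could not be checked, and limma on the scaled values was kept. Gene positions, strands and promoter windows came from RefSeq tables of GRCm38.p6; 493 of 499 list genes were matched. Genes named are those nearest to the 10 highest members, the 3 peaks on each side of the threshold, the 8 highest and 8 lowest folds between hairpins and over both hairpins, the 5 least changed members, the 8 genes with most members, and up to 3 genes per list; predicted genes were left out of the fold sets, and some genes that met these rules are not reported here. Other genes named were chosen after their values were seen. No 2 libraries agreed within sampling noise, and none were merged.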

Additional observations from a re-analysis of the deposited data

Results flagged for a closer look

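The members differed between the hairpins, neither of which chose them, by limma's test of that difference over all peaks: 402 (20.1%) were higher and 331 (16.55%) lower with hairpin #4 than with hairpin #1. Over all peaks 20.4% were higher and 21.2% lower, so the members were at or below these shares. The peaks with the highest log2 folds were those nearest to Gtf3c5 (0.52), Slpi (0.50), Ptpn1 (0.48), Ube2v1 (0.48), Angptl4 (0.48), Ttc7 (0.48), Fgf7 (0.48) and Ccn5 (0.46). The lowest were nearest to Adgrg3 (-0.65), Dlgap2 (-0.56), Pld1 (-0.54), Sncaip (-0.46), Nfat5 (-0.45), Mical3 (-0.45), Pkp1 (-0.43) and Tmem131 (-0.43).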

How the results depend on the processing

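Shares of members called varied with how libraries were scaled and with single libraries left out. With gene-end peaks as the centre, 21.55% were higher with hairpin #1, and 28.3% were higher and 18.1% lower with hairpin #4, against NTC, and 32.05% were higher with hairpin #4 than with hairpin #1. Centred on peaks away from gene ends, these shares were 4.2%, 1.55%, 57.9% and 8.85%. Centred on the next 2000 peaks in rank, an alternative chosen after seeing the data, the higher shares were 25.95%, 30.05% and 33.65%, and with equal totals 33.35% were higher between the hairpins. The median fold with hairpin #1 was -0.10 with equal totals, -0.023 centred on gene ends and -0.020 centred on the next 2000 peaks, and with hairpin #4 it was 0.022 and 0.0030 under the latter 2. With NTC library 1, 2 or 3 held out, 6.75%, 5.8% and 7.15% were higher and 20.05%, 24.85% and 22% lower with hairpin #1, and 4.7%, 3.3% and 4.1% higher and 14.3%, 19.6% and 16.55% lower with hairpin #4; those fits hold fewer NTC libraries. For the scalings the cause was not tested. Leaving out 1 library moved the higher share to between 7.4% and 19.95% with hairpin #4 against NTC and to between 12.9% and 35.1% between the hairpins. Without chromosomes 2 and 12, also chosen after seeing the data, the latter was 12.8%, and the share of all peaks without them was not computed. Of 151 called folds of named peaks over 19 settings, 2705 values kept their call, 164 lost it and none changed direction. These folds were taken because they were called in the main fit, and some of the peaks were picked for their folds. All settings reuse the same libraries, so keeping the call and direction is in part built in. Libraries with the same replicate number did not deviate together (correlations of -0.01 to 0.07), so the numbers were not taken as pairs; with the replicate number as a block, all 151 kept their call. The edgeR, DESeq2 and TMM alternatives were not run. Depth was 44753019 to 98898174 reads in peaks, and its part in the results was not tested.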
